A study of Danio rerio with 6 samples.

Results

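Galectin genes were examined in adult zebrafish (Danio rerio), in the olfactory rosettes, a pair of folded organs in the nose that bear the olfactory epithelium. The genes were chosen by symbol, as those whose name in the array annotation begins with lgals. They were 3 of the 5171 named genes tested and had 4 of the 15611 probes. The genes were lgals9l1 with 1 probe, lgals1l1 with 2 probes and lgals3a with 1 probe. RefSeq's table for assembly GRCz12tu lists 18 symbols that begin with lgals, and the probes of the other 15 were not identified on this array. The study compared 3 samples from homozygous Rag1 mutants with 3 from their wild-type siblings, all untreated, of mixed sex and 1 to 2 years old, with 1 single-colour array per sample. The product of rag1 is part of the recombinase that joins the segments of antigen receptors, and fish without it lack mature T and B cells. How many fish gave a sample is not given in the labels, nor is it said that samples came from separate animals, so the errors below cover the spread among samples alone and it may be technical. One source field calls mutant array 2 wild type, whereas by title and strain it is a mutant, as which it was used.

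Galectins are lectins that bind sugars ending in beta-galactoside on glycoproteins and glycolipids. They are made without a signal peptide, act both inside cells and after release, and in mammals they are known for roles in leukocyte adhesion, lymphocyte survival, phagocytosis and the marking of damaged vesicles. They fall into a prototype class with a single carbohydrate-binding domain, a tandem-repeat class with a pair of them, and a chimera class in which the domain is joined to a repetitive tail. Mammalian galectin-1, galectin-9 and galectin-3 stand for these classes, and lgals1l1, lgals9l1 and lgals3a are the zebrafish genes named after them.

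The arrays were of similar quality. Gene spots had a median brightness of 4.75 to 7.21 blank spots, and pairs of arrays correlated at 0.981 to 0.988 within groups and at 0.963 to 0.973 between them. The probe of rag1 itself read 6.48 to 6.74 on the log2 scale on 5 arrays and 11.92 on mutant array 3, from a spot whose pixel SD was 3.18 times its mean, and it therefore checks no label (log2 difference 1.84, SE 1.27, limma adjusted p = 0.483). Values below are log2 of the background-corrected and quantile-normalized brightness of a spot. Differences are mutant minus wild type on that scale. The family itself was picked from earlier results of this same comparison, in which lgals9l1 and lgals1l1 were higher in the mutants, so the galectin differences are a description and carry no test.

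The lgals9l1 probe (spot 13919, named for the expressed sequence tag AW420718) was far brighter in the mutants. It read 10.58, 10.05 and 10.16 in wild type (arrays 1 to 3, here and below) and 12.60, 12.39 and 12.21 in the mutants (arrays 1 to 3). Every mutant array lay above every wild-type array, and the dimmest mutant was 1.63 above the brightest wild type. The group means were 10.26 ± 0.280 and 12.40 ± 0.197 (SD, n = 3 each), a difference of 2.13 (SE 0.18) or 4.39-fold. The gap between the groups was thus several times the spread within either. Among all 15611 probes this was the difference of rank 43, counted from the highest. Before normalization, in multiples of the median blank spot of its own array, the spot stood at 8.92, 7.63 and 10.7 in wild type and at 38.2, 35.6 and 30.8 in the mutants, so the separation was already present in the scanner values. In whole rosettes, more cells of a type and more RNA per cell cannot be told apart.

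The lgals1l1 gene was measured at 2 spots, and both were brighter in the mutants. Spot 8656 (BI885986) read 10.26, 9.40 and 9.62 in wild type and 11.38, 10.78 and 11.55 in the mutants. Spot 14554 (BM155827) read 9.12, 8.89 and 9.12 in wild type and 10.71, 10.06 and 11.26 in the mutants. At neither spot did the groups overlap, with gaps of 0.52 and 0.94 between the dimmest mutant and the brightest wild type. The differences were 1.48 (SE 0.28) or 2.78-fold at spot 8656 and 1.63 (SE 0.28) or 3.1-fold at spot 14554, with n = 3 per group. Among all probes these were the differences of rank 108 and 88. The effect was larger at spot 14554 by 0.16, which is less than the SD of the distance between the spots within wild type (0.367) or within the mutants (0.238). In multiples of the median blank spot, spot 8656 stood at 7.23, 5.0 and 7.49 in wild type and 16.8, 12.4 and 19.7 in the mutants. Spot 14554 was dimmer, at 3.63, 3.66 and 5.48 in wild type and 10.6, 7.79 and 16.3 in the mutants.

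The spread of lgals1l1 between arrays of a group was wide. Its pooled SD within groups was 0.425 at spot 8656 and 0.435 at spot 14554, larger than that of 92.7% and 93.1% of all probes, where the median probe had 0.205. At spot 14554 most of it lay in the mutants (SD 0.60 against 0.134 in wild type), and at spot 8656 the groups were alike (0.404 and 0.446). Both spots placed mutant array 3 highest and mutant array 2 lowest, at 0.31 above and 0.46 below the group mean for spot 8656 and at 0.58 above and 0.61 below it for spot 14554. In lgals9l1 the order of the mutants was another, with array 1 highest, and its pooled SD of 0.242 was close to that of the median probe. In wild type, array 1 was the brightest for lgals9l1 and for spot 8656, by 0.32 and 0.50 above the group means. At spot 14554 wild-type arrays 1 and 3 were level.

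The lgals3a probe (spot 16139, BI888238) did not separate the groups. Its readings were 11.37, 11.89 and 11.93 in wild type and 11.66, 11.99 and 11.90 in the mutants. All 3 mutant values lay within or just above the wild-type range. The difference was 0.12 (SE 0.18, n = 3 per group), smaller than the wild-type SD of 0.310, and it was -0.055 without wild-type array 1, the dimmest of the 6. At 15.0 to 35.7 times the median blank spot, the probe was well above background on every array.

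**Figure D1:**
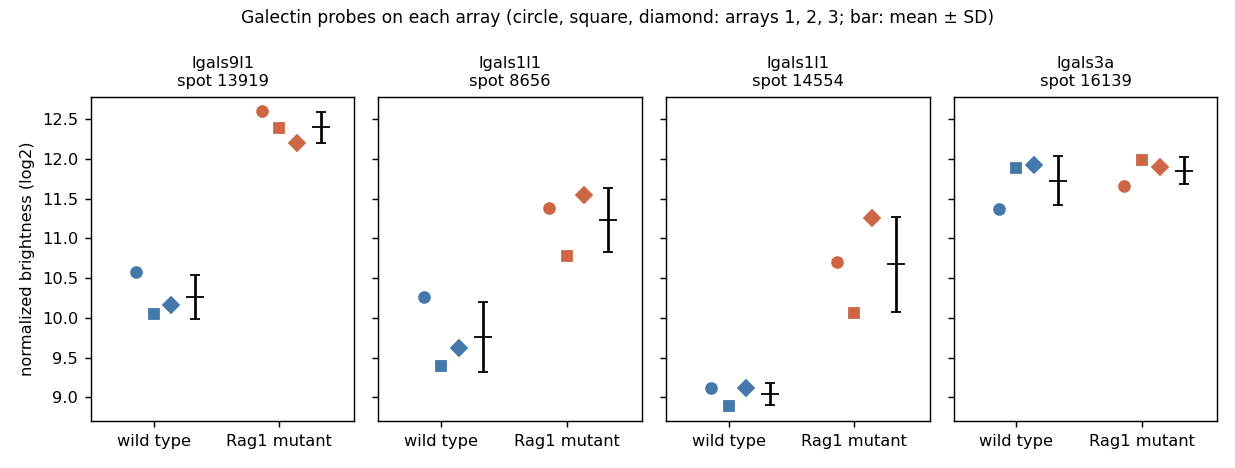
Normalized brightness (log2) of the 4 galectin probes on each array, with wild type in blue and Rag1 mutants in orange, array 1 as a circle, 2 as a square and 3 as a diamond, and the mean ± SD as a bar. The mutants lie above the wild types without overlap for lgals9l1 and both lgals1l1 spots, while the lgals3a values of the groups overlap.

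Of the 4 galectin probes, 3 passed an adjusted p of 0.05 as higher in the mutants in limma's fit across all probes, and none passed as lower. Of all 15611 probes, 4.79% passed, 2.43% as higher and 2.36% as lower. The mutant arrays all lay above the wild-type arrays for the same 3 probes, which was so for 13% of all probes. These counts restate the values for which the genes were chosen. The probe of lgals9l1 passed with each of 20 other ways of processing the arrays or leaving some out. The lgals1l1 spots passed in 13 (spot 8656) and 14 (spot 14554) of the 20, with differences of 1.29 to 1.73 and 1.35 to 1.94. The groups did not overlap in any of them, but in many this could not have come out otherwise. Leaving arrays out cannot create an overlap, and changes of filter or weights leave the readings as they were. Neither spot passed without wild-type array 2 (1.29 and 1.55), without wild-type array 3 (1.41 and 1.67) or without mutant array 1 (1.40 and 1.61), and spot 8656 did not pass without mutant array 3 (1.33). Neither passed with brightness left uncorrected (1.34 and 1.43), with an offset of 200 (1.33 and 1.40) or without both number 2 arrays (1.53 and 1.85).

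**Figure D2:**
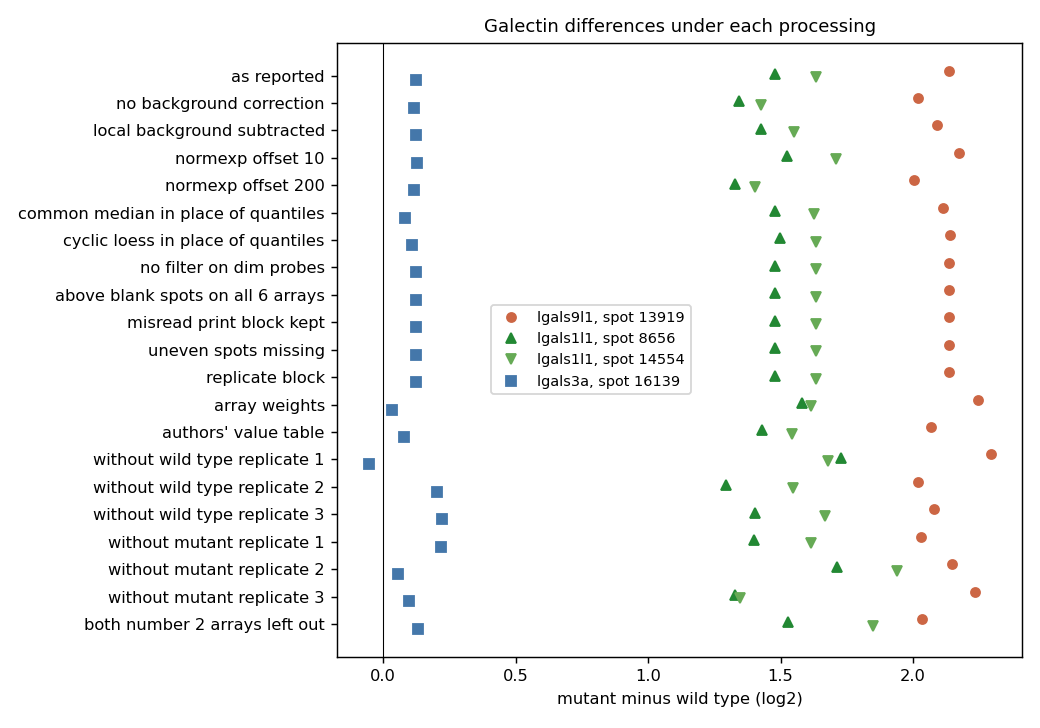
Difference between Rag1 mutants and wild type (log2) of the 4 galectin probes as reported and under 20 alternatives, 1 per row. The points of lgals9l1 stay between 2.01 and 2.29, those of the lgals1l1 spots between 1.29 and 1.94, and those of lgals3a near 0.

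**Figure D3:**
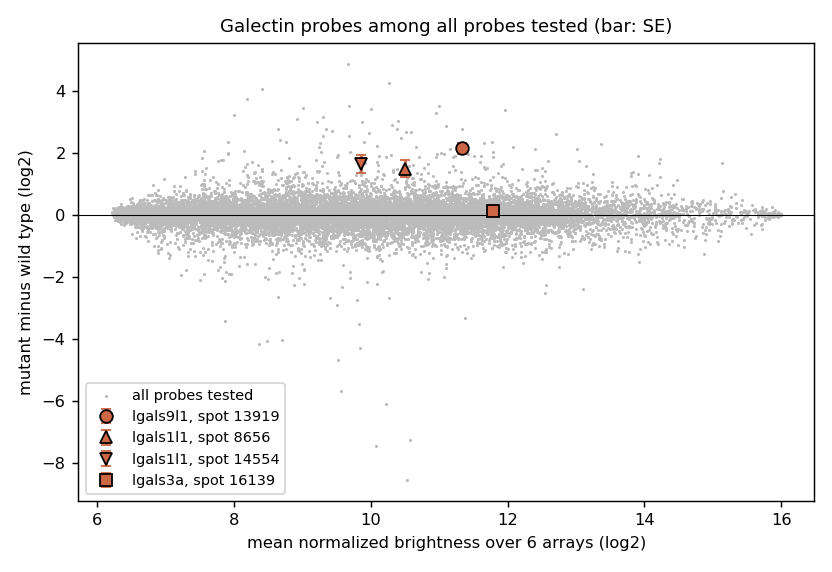
Difference between Rag1 mutants and wild type (log2) against the mean normalized brightness over the 6 arrays (log2) for all 15611 probes in grey, with the 4 galectin probes marked and their SE as bars. The lgals9l1 probe (2.13) and both lgals1l1 spots (1.48 and 1.63) lie above most probes of like brightness. They rank 43, 108 and 88 by difference, counted from the highest. The lgals3a probe (0.12) lies inside the cloud.

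The spots themselves were regular. On all 24 readings of the 4 probes the pixel SD was 0.201 to 0.424 of the spot's mean, and the local background was 32.7 to 37.2 per pixel. All 4 probes exceeded the blank spots on all 6 arrays. They lay in 4 different print blocks, whose 288 to 339 probes had median differences of -0.0029 to 0.054, far below those of lgals9l1 and lgals1l1. None lay in the print block that was misread on wild-type array 2. In the authors' deposited table, whose ratios are centred on each probe's median over the arrays, lgals9l1 stood at 0.500, 0.363 and 0.391 in wild type and at 2.04, 1.71 and 1.5 in the mutants. There lgals1l1 stood at 0.815, 0.472 and 0.547 against 1.80, 1.19 and 1.93 at spot 8656 and at 0.700, 0.599 and 0.698 against 1.98, 1.30 and 2.80 at spot 14554. The lgals3a ratios of that table were 0.682, 1.03 and 1.06 in wild type and 0.857, 1.06 and 0.970 in the mutants. On the log2 scale the group means of the authors' deposited table differed by 2.07 for lgals9l1, 1.43 and 1.54 for the lgals1l1 spots and 0.08 for lgals3a. That table comes from the same arrays and is no independent check.

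Markers of white blood cells differed along with the galectins. Of 5171 named genes tested, each at its brightest probe, 4.95% passed limma's test, 2.78% as higher and 2.17% as lower, and 21.8% had an unadjusted p under 0.05. Of 9 genes tested that were listed as macrophage markers, 5 rose (laptm5, lcp1, mpeg1.1, spi1b and csf1ra) and none fell, around a median of 0.95. The brightest of the 9, apoeb (-0.06) and lgmn (0.97), did not pass (limma adjusted p = 0.833 and 0.0575). Of the listed genes, laptm5, lcp1, spi1b and ptprc are also expressed in other white blood cells, so the count does not stand for macrophages alone. The gene ptprc is also in the list of galectin-binding glycoproteins below. The mean level of the 9 was 11.58 to 11.99 on wild-type and 12.51 to 12.77 on mutant arrays. Of 8 neutrophil markers, 4 rose and none fell, with a median of 1.14 and mean levels of 9.26 to 9.54 against 10.38 to 11.28. Leaving out wild-type array 2 left 2 macrophage risers, leaving out any one of wild-type array 3, mutant array 1 and mutant array 3 left 1, and leaving out both number 2 arrays left 0, with medians of 0.88 to 0.93. Each of these macrophage and neutrophil markers exceeded the blank spots throughout, and 24 further macrophage and 13 further neutrophil markers had no probe identified here. Of 11 red blood cell markers 1 rose, cahz (1.19), against 3 without mutant array 2 and none when any other array was left out. Their median was 0.40, 10 of the 11 lay above 0, and 6 had an unadjusted p under 0.05 in limma, all higher. The haemoglobin genes hbaa1 (1.36) and hbba1 (1.26) did not pass (limma adjusted p = 0.0556 and 0.117). They passed in 6 and 2 of the 20 alternatives. Of 5 T cell markers 2 fell, trac (-1.10) and zap70 (-2.06), against 1 without wild-type array 2 and 0 without both number 2 arrays. The median was -0.06, the value of gata3. The other T cell markers, tox (0.56) and runx3 (0.73), lay above 0 and did not pass (limma adjusted p = 0.0523 and 0.105). With local background subtracted, an offset of 200, cyclic loess or array weights, tox passed as higher. Without mutant array 3, runx3 passed as higher. Of 4 genes listed as B cell markers, the kinase genes syk (1.41) and lyn (1.21) rose, and both are also expressed in myeloid cells. The immunoglobulin light chain gene igl1c1 fell (-2.04), and pax5 did not pass (-0.11). None of the 4 passed without both number 2 arrays. Of 15 olfactory sensory neuron markers, all above the blank spots, 5 fell around a median of -0.52 (1 to 3 when 1 array was left out, 0 without both number 2 arrays), among them the olfactory channel gene cnga2, whereas the olfactory marker protein genes had no probe identified here. Of 19 surface epithelium markers 1 fell, near the share among all named genes, and that call ended when any 1 array but wild-type array 2 was left out. None of 9 glial or 4 endothelial markers passed, and 3 and 2 of them had an unadjusted p under 0.05 in limma. With a common median, array weights or the authors' table, or without wild-type array 1, 1 glial marker passed as lower. The medians of the surface epithelium, glial and endothelial lists were -0.07, 0.02 and -0.02. The part of any of these cell types in the galectin differences was not tested.

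The named genes whose values over the 6 arrays were most like those of lgals9l1 were card9, csf1ra, cmpk2, nppa and frzb, by Pearson correlation among 5168 named genes. The correlations were 0.997, 0.991, 0.991, 0.989 and 0.989, and 68 genes exceeded 0.95. With 6 arrays in 2 separate groups such values rest mainly on the distance between the groups, so they describe likeness and no more. Genes picked this way had to share the group difference of lgals9l1, which was itself chosen, and their differences are therefore also given without a test. The closest, card9, encodes an adaptor that in mammals carries signals from C-type lectin receptors of myeloid cells. It read 10.54, 9.85 and 9.90 in wild type and 12.42, 12.11 and 12.13 in the mutants, a difference of 2.12 (SE 0.21), nearly that of lgals9l1.

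The next in likeness differed in size. The macrophage growth factor receptor gene csf1ra, also among the macrophage markers that rose, was higher by 0.95 (SE 0.13). The nucleotide kinase gene cmpk2, known as induced by interferon, was higher by 2.01 (SE 0.22). The gene of the secreted Wnt inhibitor frzb was higher by 0.64 (SE 0.12), and by 0.34 with an offset of 200 and 0.36 with brightness left uncorrected. For nppa, a natriuretic peptide gene, the values of 6.20 to 6.34 were near the dimmest on the arrays, the spot exceeded the blanks on only 4 of the 6, and the difference was 0.12, so its place in the order says little.

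For lgals1l1, taken at its brighter spot 8656, the most alike genes were flncb, mfap4.13, spc24, spon1b and clic2, with correlations of 0.988, 0.988, 0.984, 0.984 and 0.984, and 61 genes exceeded 0.95. None of them was among the 5 most like lgals9l1. The overlap of these 61 genes with the 68 that exceeded 0.95 for lgals9l1 was not counted, so this does not set lgals1l1 apart from lgals9l1. The gene mfap4.13, of a cluster of genes for secreted fibrinogen-domain proteins, read 11.26, 10.79 and 10.76 in wild type and 12.66, 11.89 and 12.64 in the mutants, a difference of 1.46 (SE 0.24). The gene clic2, of the chloride intracellular channel family, read 12.21, 11.58 and 11.48 in wild type and 13.50, 12.92 and 13.36 in the mutants, a difference of 1.50 (SE 0.24). Like lgals1l1, both had their lowest mutant value on array 2. All 5 genes were picked for their likeness over these same arrays, so a shared order of arrays is no separate finding. Among wild types all 5 read highest on array 1, as spot 8656 did, whereas spot 14554 read 9.12 on both arrays 1 and 3. Likeness to spot 14554 was not tested, so these genes are like spot 8656 and not shown to be like lgals1l1 at both spots. The filamin gene flncb (0.43), the kinetochore gene spc24 (0.49) and the spondin gene spon1b (0.37) tracked the same arrays with smaller differences.

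**Figure D4:**
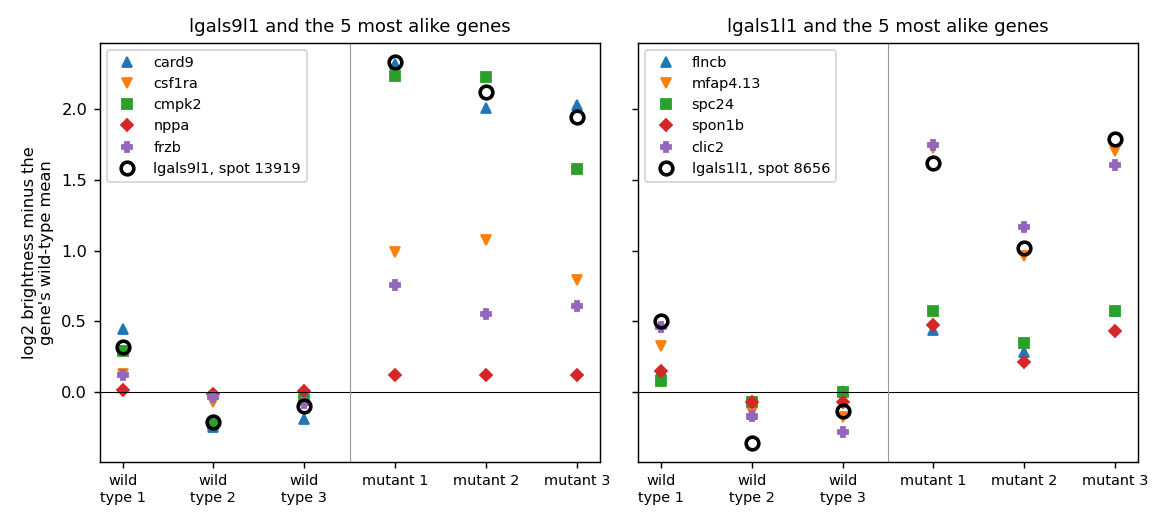
Log2 brightness on each array minus the gene's own wild-type mean for lgals9l1 (left) and lgals1l1 spot 8656 (right), as black circles, with the 5 named genes most like each. Only card9 and, on mutant arrays 1 and 2, cmpk2 came close to lgals9l1 in size. The genes mfap4.13 and clic2 followed lgals1l1 spot 8656 in size and in the dip on mutant array 2. The other lgals1l1 spot was not compared.

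In RefSeq's gene order (GRCz12tu), lgals9l1 lies in a run of relatives, with lgals9l4, lgals9l5, lgals9l6 and lgals9l3 among the 8 annotated genes on either side, and lgals1l1 lies next to lgals2a. Values for these relatives are not given because no probe was assigned to them, and whether the lgals9l1 or lgals1l1 probes also detect their close copies was not tested. Of the 16 neighbours of lgals9l1, 5 were tested and none passed limma's test. Its immediate neighbour ksr1b, a scaffold gene of Ras signalling, was at 0.50 (SE 0.15, limma adjusted p = 0.115), and nf1a, wsb1, cuedc1b and vezf1b lay between -0.35 and -0.03. Of the 2 tested neighbours of lgals1l1, fam83fa was at 0.10 (SE 0.17, limma adjusted p = 0.814), whereas si:ch211-76l23.4, 7 places away, fell by 1.87 (SE 0.13, limma adjusted p = 0.00126). The 5 tested neighbours of lgals3a lay between -0.39 and 0.40 and none passed, the lowest limma adjusted p being 0.164.

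Genes of the enzymes that build or trim galactose-ending sugars, the ligands of galectins, were then compared. Of 58 listed, 8 were tested, with a median difference of 0.20, against 0.01 for all named genes. Only b3gnt7 passed. It encodes an N-acetylglucosaminyltransferase that extends chains of galactose and N-acetylglucosamine, and it read 10.55, 10.70 and 10.41 in wild type and 9.17, 9.45 and 9.60 in the mutants, without overlap. It fell by 1.15 (SE 0.16, n = 3 per group, limma adjusted p = 0.0102), and the call ended only without both number 2 arrays (adjusted p = 0.113). Its relative b3gnt3.1 was at 0.64 (SE 0.14) and missed the threshold (limma adjusted p = 0.051). The other 6 were st3gal5, b3gnt2b, b4galt6, b3gnt7l, neu1 and b3gnt2a, which lay between -0.24 and 0.26. Of all named genes 4.95% passed, and for 12.8% of all probes the mutant arrays all lay below the wild-type arrays. With 1 call among 8 tested genes, this describes b3gnt7 and not the sugar-chain genes as a list.

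Of 72 genes listed as galectin-binding glycoproteins, among them integrins, laminins, tetraspanins and lysosomal membrane proteins, 30 were tested. None passed limma's adjusted threshold, and 7 had an unadjusted p under 0.05, of which 3 were higher and 4 lower, a share close to the 21.8% of all named genes. Their median was 0.10. The integrin gene itga6b, at -0.86 (SE 0.31, limma adjusted p = 0.166), passed without wild-type array 1 (-1.24, adjusted p = 0.018), and the neural adhesion gene l1cama, at -0.53 (SE 0.14, adjusted p = 0.073), passed with array weights (adjusted p = 0.0493). The leukocyte phosphatase gene ptprc, whose product binds galectin-1 on mammalian T cells, was at 0.43 (SE 0.24, limma adjusted p = 0.376).

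Of 77 genes listed as other lectins, 14 were tested, none passed limma's adjusted threshold and 4 had an unadjusted p under 0.05, all of them higher, where 11.3% of all named genes were higher and 10.4% lower at that p. The median was 0.14 and 10 of the 14 lay above 0. The largest differences among those 4 were those of colec12, a scavenger receptor collectin, at 0.54 (SE 0.15, limma adjusted p = 0.0959), and edem1, a lectin of protein quality control in the endoplasmic reticulum, at 0.52 (SE 0.18, adjusted p = 0.159). This list also held genes that are not known as lectins, among those tested ssr4 and prg4a. Of 50 genes listed for vesicle repair and autophagy, where mammalian galectins mark damaged membranes, 16 were tested. Only pdcd6 passed, a share near the 4.95% of all named genes. The gene encodes a calcium-binding protein that brings repair factors to damaged membranes. It read 11.79, 11.64 and 11.90 in wild type and 12.50, 12.63 and 12.54 in the mutants, without overlap, and rose by 0.78 (SE 0.12, n = 3 per group, limma adjusted p = 0.0174). The call ended without wild-type array 2, mutant array 1, mutant array 2 or mutant array 3 (adjusted p 0.0512 to 0.0687), and without both number 2 arrays (0.161). The adaptor genes optn (0.11), tax1bp1b (-0.17) and tax1bp1a (-0.52) did not pass, and the list's median was -0.06.

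**Figure D5:**
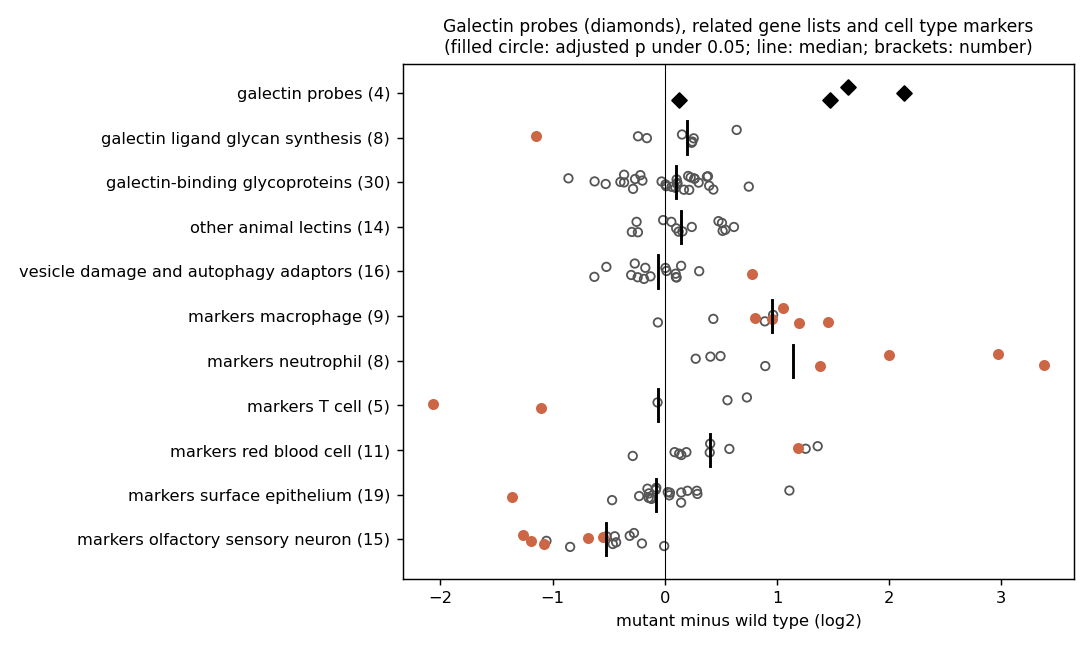
Difference between Rag1 mutants and wild type (log2) for the 4 galectin probes as black diamonds and, as circles, for the brightest probe of each tested gene of 4 related lists and 6 lists of cell type markers. Filled circles passed an adjusted p of 0.05 in limma and lines are medians, which lie between -0.06 and 0.20 for the 4 related lists and at 0.95 and 1.14 for macrophage and neutrophil markers.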

How the data were processed

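Total RNA of olfactory rosettes was labelled by in vitro transcription and read in 1 colour, per the labels' protocols. Per the file headers, the authors' deposited scanner tables give each spot's intensity and local background. Neither scanner nor software is given in the sources used here. The deposited series table holds a ratio per probe, centred on the probe's median, with its scaling unknown. It served as an alternative, and its galectin ratios are given above.

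Intensity was divided by 100 (its ceiling is 6553500), corrected with normexp (offset 50) and quantile normalized in limma 3.58.1 (R 4.3.3). Blank and control spots, 1 spot unreadable on mutant array 1 and the 400 spots of a block misread on wild-type array 2 (correlation 0.241 in place, 0.981 at 1 row on) were left out. Probes above the 95th percentile of blank spots on all arrays of a group were kept, 15611 of 15885. The division and the choice of filter followed an earlier treatment of these arrays that had looked at their values. Symbols came from the platform annotation, updated through RefSeq (GRCz12tu). Of the probes, 5773 had 1 symbol, 73 several and 10037 none.

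Groups were compared with lmFit and eBayes, two-sided, with Benjamini-Hochberg adjustment over all probes, and the script was tested on simulated data. The brightest probe stood for a gene in lists. Galectins and lists were chosen with earlier results of these data known. Named are all galectin probes, listed genes past the threshold (up to 8 a list), the 5 genes most correlated with lgals9l1 and with lgals1l1, up to 3 of the brightest markers a list, and rag1. Other genes given were named after their values were seen. Only the number 2 is in the titles of both groups, so the numbers were not taken to pair samples. The number of arrays limits the precision.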

Additional observations from a re-analysis of the deposited data

How the results depend on the processing

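The 20 alternatives varied background correction, offset, normalization, filter, spots left out, weights, the authors' table and arrays left out. Over them the galectin differences were 2.01 to 2.29 for lgals9l1, 1.29 to 1.73 and 1.35 to 1.94 for lgals1l1 and -0.055 to 0.222 for lgals3a. Leaving out 1 array can move a group mean only by a part of that group's own spread. Changes of filter or a replicate block leave the difference nearly or wholly as it was. These ranges are therefore no test of stability. Counts moved too. All probes called were 247 to 598 when 1 array was left out (747 with all) and 80 without both number 2 arrays. The galectin probes called higher were 1 to 3 when 1 array was left out, and 1 without background correction, with an offset of 200 or without both number 2 arrays. With the sample number as a replicate block 1117 probes passed, 3 galectin probes among them, and 1 other lectin (colec12, adjusted p = 0.0481). In that fit 2 red blood cell markers rose in place of 1, and of the surface epithelium markers 1 rose and none fell (pkp1b, adjusted p = 0.0506). Same-numbered arrays deviated together across probes (r = 0.317, 0.223 and 0.284), a hint from the data and not from the design. Deviations from a group mean sum to 0, so positive values for same numbers push those for other numbers (at most -0.068) below 0. The values for other numbers are thus no separate contrast. Sugar-chain genes called were 2 with cyclic loess or array weights (b3gnt3.1 added) and 0 without both number 2 arrays. Galectin-binding glycoproteins called were 1 with array weights and 0 to 1 when 1 array was left out. Vesicle genes called were 0 to 1 when 1 array was left out and 0 without both number 2 arrays. The causes were not tested. Fewer arrays entered each fit that left some out. Among 52 other genes followed through the alternatives, not all of them named above, 1039 values gave 120 lost and 20 gained calls. The glulb probe read 15.998, near the brightness ceiling, on all 3 wild-type arrays and on mutant array 3, and apoeb read 15.815 to 15.998. Their differences and signs therefore say little. None of the sign changes was in a called gene: apoeb (0.046 with a common median, 0.045 in the authors' table), glulb (0.084 with a common median, 0.035 with cyclic loess, 0.083 in the authors' table), epcam (-0.038 without wild-type array 2 to 0.115 without wild-type array 3, -0.054 without both number 2 arrays), cldn7b (-0.017 to 0.111 when 1 array was left out), gata3 (-0.271 to 0.151 when 1 array was left out, 0.067 without mutant array 1) and cldni (-0.158 to 0.008 when 1 array was left out).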
